A study of Mus musculus with 4 samples.

Results

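The Sonic hedgehog pathway genes were examined here as a set of 9 members, Shh, Ptch1, Smo, Gli1, Gli2, Gli3, Sufu, Hhip and Boc, for the anti-NR2F1 signal that lay over and around them. The members were taken by name, and their regions were all merged peaks that overlapped a gene body (mm10) or the 20 kb on either side of it. This gave 295 of the 263639 merged regions of the series. Of these, 38 passed the filters of the test (a peak called in each of the 4 libraries, and 2 or more libraries with 10 or more cut sites), as 35770 regions did in all. At the level of genes, cut sites of the tested regions were summed for each of 16363 protein-coding genes, and all 9 members were among them.

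Hedgehog ligands are secreted proteins that bind Patched, a membrane protein which holds the transducer Smoothened inactive until ligand arrives. Active Smoothened works in the primary cilium to release the GLI transcription factors from their inhibitor SUFU and from processing into repressors. In the ventral neural tube, SHH from the notochord and floor plate sets the progenitor domains from which motor neurons and other ventral neurons arise, and Ptch1, Hhip and Gli1 are themselves targets of the signal.

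Single-cell CUT&Tag tethers the transposase Tn5 to an antibody, and the enzyme inserts adapters into DNA beside the protein, with each cut site taken as 1 count. The antibody recognised NR2F1 (COUP-TFI), an orphan nuclear receptor. The cells were sorted for GFP from dissected rhombomere 4 (r4) and adjacent hindbrain of embryos at E10.5. The Fam5snv/snv embryos are homozygous for a noncoding single-nucleotide variant of a family with congenital facial paresis, placed in a regulatory element near Gata2, and their libraries came from pools of 8 (replicate 1) and 16 (replicate 2) embryos. The WT libraries came from pools of 26 and 26 embryos. Both genotypes carried the Isl1MN-GFP transgene, a reporter of motor neurons, and in every sort the gate was widened to GFP-negative cells at the end, so that barcodes can come from cells other than motor neurons. A pool of embryos is 1 library, and 2 libraries per genotype are the replicates.

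The libraries held 2274 and 2740 barcodes in Fam5snv/snv and 2572 and 1377 in WT, with 8967987 and 10341894 cut sites in Fam5snv/snv and 3083946 and 3580517 in WT. WT replicate 1 stood apart, with 42168 called peaks against 137996 to 170993 in the other libraries, and with 99.5% of its cut sites in tested regions against 74.1% to 79.9%. On log2 CPM over tested regions the Fam5snv/snv libraries correlated at 0.92 with each other and the WT libraries at 0.74. Pairs across genotypes correlated at 0.78 to 0.83, so each WT library was closer to the Fam5snv/snv libraries than to the other WT library. Library and depth are shared by all points in these values, and the WT spread sets the error of most members. CPM here is the count of cut sites in a region, scaled to the same total over tested regions in each library (CPM of edgeR with TMM scaling). The promoters of 5 r4 motor neuron markers (Isl1, Tbx20, Slc18a3, Chat and Phox2a) all had a tested region, with summed CPM of 305 and 319 in Fam5snv/snv and 277 and 291 in WT. The promoters of the 5 floor plate markers, Shh among them, summed to 143 and 147 in Fam5snv/snv and 153 and 155 in WT, and those of the 5 neural progenitor markers to 394 and 374 in Fam5snv/snv and 440 and 437 in WT. Of the 5 endothelial markers only Erg and Sox18 had a tested promoter region, with summed CPM of 166 and 156 in Fam5snv/snv and 110 and 103 in WT, while Kdr, Pecam1 and Cdh5 had none. The 6 mesenchyme and neural crest markers summed to 130 and 115 in Fam5snv/snv and 89.7 and 174 in WT, and the blood markers with a tested promoter region, 2 of 5, to 48.8 and 47.7 in Fam5snv/snv and 31.9 and 64.7 in WT. The part of these cell types in the results below was not tested. In these pooled signals, fewer cells of a type and less signal per cell cannot be told apart.

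The promoters of 6 members have a RefSeq entry (GRCm38.p6, the mm10 assembly), each with 250 bases before the start and 50 after it, and those of Shh, Gli1 and Boc were not printed here. The 4 promoters below are shown because they had the most bases in a peak of every library. Capitals mark bases that lie in a called peak of all 4 libraries, and lower case marks bases outside a peak of at least 1 library. The positions are chr13:63565686-63565985 for Ptch1 (minus strand), chr19:46396646-46396945 for Sufu (plus strand), chr6:29735247-29735546 for Smo (plus strand) and chr1:119053570-119053869 for Gli2 (minus strand).
Ptch1 promoter: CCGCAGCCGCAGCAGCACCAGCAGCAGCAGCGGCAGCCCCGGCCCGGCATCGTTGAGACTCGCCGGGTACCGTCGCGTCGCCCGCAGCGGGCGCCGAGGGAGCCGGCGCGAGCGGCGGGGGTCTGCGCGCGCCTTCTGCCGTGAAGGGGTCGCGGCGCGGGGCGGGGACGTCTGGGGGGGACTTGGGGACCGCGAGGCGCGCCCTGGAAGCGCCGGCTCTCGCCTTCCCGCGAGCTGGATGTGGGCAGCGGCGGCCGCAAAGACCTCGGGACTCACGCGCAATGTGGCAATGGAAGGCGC
Sufu promoter: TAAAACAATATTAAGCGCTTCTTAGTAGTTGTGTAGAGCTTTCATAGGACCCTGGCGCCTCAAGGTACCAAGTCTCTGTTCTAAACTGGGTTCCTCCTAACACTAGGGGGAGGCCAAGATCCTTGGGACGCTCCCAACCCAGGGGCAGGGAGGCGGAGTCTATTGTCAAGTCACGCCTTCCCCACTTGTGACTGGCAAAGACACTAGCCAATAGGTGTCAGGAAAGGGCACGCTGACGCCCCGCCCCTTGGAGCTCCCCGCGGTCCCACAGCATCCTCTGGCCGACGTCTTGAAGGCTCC
Smo promoter: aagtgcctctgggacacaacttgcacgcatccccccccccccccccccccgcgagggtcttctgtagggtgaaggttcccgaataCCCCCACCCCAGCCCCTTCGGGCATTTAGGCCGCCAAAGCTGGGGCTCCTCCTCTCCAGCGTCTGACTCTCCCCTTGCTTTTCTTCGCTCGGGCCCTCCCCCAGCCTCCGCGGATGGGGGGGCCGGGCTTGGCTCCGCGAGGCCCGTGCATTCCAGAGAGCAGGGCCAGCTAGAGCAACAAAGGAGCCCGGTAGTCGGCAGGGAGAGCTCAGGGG
Gli2 promoter: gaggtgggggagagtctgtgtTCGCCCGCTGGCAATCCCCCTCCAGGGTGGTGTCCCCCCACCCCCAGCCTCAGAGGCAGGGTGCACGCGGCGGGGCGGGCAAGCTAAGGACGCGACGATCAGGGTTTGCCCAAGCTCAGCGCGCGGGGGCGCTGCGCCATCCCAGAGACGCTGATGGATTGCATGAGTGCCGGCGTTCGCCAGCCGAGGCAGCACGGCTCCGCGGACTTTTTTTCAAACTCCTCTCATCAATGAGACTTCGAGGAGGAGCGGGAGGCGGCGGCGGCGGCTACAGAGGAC

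All 300 bases of the Ptch1 and Sufu promoters lay in a peak of every library, against 279 bases for Gli2, 215 for Smo, 5 for Gli3 and 0 for Hhip. In each case the library that fell short was WT replicate 1. The 6 promoters held 56.3% (Sufu) to 76.3% (Ptch1) G and C, against a median of 52.7% over the 32851 promoters of the table. None of the 6 contained the COUP-TF hexamer AGGTCA on either strand, which 16.3% of all promoters in the table held, and none contained the GLI core GACCACCCA, which 0.253% held. No match says only that these letters are not in this window.

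Matches lay elsewhere in the members' tested regions. The GLI core occurred 4 times in the 115007 bp of the 38 tested regions, 0.0348 per kb, against 0.0110 per kb over all tested regions, and 3 of the 4 lay in the promoter regions of Ptch1. The fourth lay in an exon-overlapping region 9.8 kb into Gli1. The next sequences show the 3 Ptch1 matches on chromosome 13 with 20 bases on either side, with the GLI core in capitals, at chr13:63566415-63566463 (plus strand), chr13:63569265-63569313 (minus strand) and chr13:63573445-63573493 (minus strand).
Ptch1 GLI core A: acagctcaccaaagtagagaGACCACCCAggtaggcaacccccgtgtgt
Ptch1 GLI core B: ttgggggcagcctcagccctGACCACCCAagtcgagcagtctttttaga
Ptch1 GLI core C: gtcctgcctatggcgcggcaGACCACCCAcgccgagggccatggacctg

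All 3 lay inside a called peak of all 4 libraries. Cores A and B lay in the main promoter region of Ptch1 and core C in the upstream one. A direct repeat of AGGTCA with 1 base between the copies (DR1), the spacing bound by COUP-TF dimers, had no perfect match in the members' tested regions, where the density over all tested regions was 0.00897 per kb. Matches with at most 1 mismatch numbered 3, and they are shown with the repeat in capitals. The Gli2 match, in an intron, is at chr1:118954380-118954432 (minus strand), the Ptch1 match at chr13:63568707-63568759 (plus strand) and the Sufu match, in an intron, at chr19:46465469-46465521 (minus strand).
Gli2 intron DR1: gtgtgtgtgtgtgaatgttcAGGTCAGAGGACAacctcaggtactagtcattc
Ptch1 promoter region DR1: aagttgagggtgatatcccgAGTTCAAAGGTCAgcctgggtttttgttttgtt
Sufu intron DR1: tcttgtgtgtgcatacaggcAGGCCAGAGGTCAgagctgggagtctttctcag

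The Gli2 repeat lay in a peak of both Fam5snv/snv libraries and of neither WT library, although the merged region around it had a peak in all 4. The repeat (chr1:118954400-118954412) lay near the start of these peaks. They began at 118954350 and 118954392 in Fam5snv/snv and at 118954424 and 118954689 in WT. The merged region had 34.45 and 24.9 CPM in Fam5snv/snv and 32.9 and 17.9 CPM in WT, which overlapped (log2 fold change 0.22, SE 0.35, edgeR adjusted p = 0.859). The Ptch1 and Sufu repeats lay in a peak of both Fam5snv/snv libraries and of WT replicate 2. Within 250 bp of the midpoint of a tested region, the hexamer was present in 8 of 38 member regions (21.1%) against 33.8% of all tested regions, the DR1 with up to 2 mismatches in 2 of 38 (5.26%) against 11.3%, and the GLI core in 0 of 38 against 0.484%. Over the whole span of the regions the hexamer had a density of 0.626 per kb in the members and 0.828 per kb in all tested regions. These matches are descriptions of sequence, not binding sites.

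At the level of genes, 0 of 9 members passed an adjusted p of 0.05 with edgeR's quasi-likelihood test and Benjamini-Hochberg adjustment, where 0% of all genes did. DESeq2 called 0 of the 5 members to which it gave an adjusted p (37 genes higher and 1 lower over all genes, 0.612% of the 6211 with an adjusted p), and it gave none for Shh, Smo, Gli3 and Hhip. At an unadjusted p under 0.05, 1 member (Gli2) was higher in Fam5snv/snv, where 6.39% of all genes were, and 0 were lower, where 3.42% of all genes were. Both Fam5snv/snv libraries lay above both WT libraries for 1 member (Gli2), where they did for 21.5% of all genes, and below both for 2 members (Smo and Gli1), where they did for 21.3%. The windows of Smo and Gli1 include promoters of neighbouring genes. The median log2 fold change of the 9 members was -0.09, against -0.01 for all genes tested. Gene-level CPM is scaled to a table in which a cut site counts once for each gene window it falls in, so it is not on the scale of the region CPM given further on.

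Among regions, 0 of 38 member regions passed an adjusted p of 0.05 with edgeR, where 0% of the 35770 did, and DESeq2 called 0 of 38 (366 higher and 194 lower over all regions, 1.57%). At an unadjusted p under 0.05, 2 member regions were higher in Fam5snv/snv, where 5.29% of all regions were, and 3 were lower, where 3.37% were. Both Fam5snv/snv libraries exceeded both WT libraries in 4 member regions, where they did in 23.2% of all regions, and lay below both in 6, where they did in 21.4%. In this design an exact permutation test on a single value, 2 libraries against 2, cannot give a two-sided p below 0.333.

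The direction differed with the place of a region. Of the 10 tested regions at a member's own promoter, 9 had a log2 fold change below 0, with a median of -0.40, against 8858 of 12647 promoter regions (70.0%) with a median of -0.21 over the series. The 24 member regions away from promoters had a median of 0.17, against 0.19 for all such regions. Without WT replicate 2, 6 of the 10 promoters were below 0, with a median of -0.08, and without WT replicate 1, 9 of 10 with a median of -0.38.

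The calls depended on the WT libraries. Without WT replicate 1, 2 member regions passed an adjusted p of 0.05 in edgeR, the Gli3 and Boc promoter regions, both lower in Fam5snv/snv (1911 regions in all, 5.34%). Without WT replicate 2, 8 passed (6315 in all, 17.7%). These were the promoter regions of Sufu, Gli1 and Shh and the neighbouring promoters of Ahcyl2 and Mars, all lower. The others were the Gli3 promoter region and the Ptch1 intronic regions at 18.1 kb and 44.9 kb, all higher. The region at 44.9 kb had 0 cut sites in WT replicate 1, where the called peak was 1 bp long. A library has no count outside its own peaks, so this 0 does not show an absence of signal. Of the 9 genes, Gli2 and Gli3 passed without WT replicate 1, where 6.96% of all genes did, and Gli2, Gli3 and Ptch1 without WT replicate 2, where 19.5% did. Without either Fam5snv/snv library, 0 members passed. In each of these fits 1 library stands alone in its genotype and is assumed to vary like the other genotype.

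**Figure D1:**
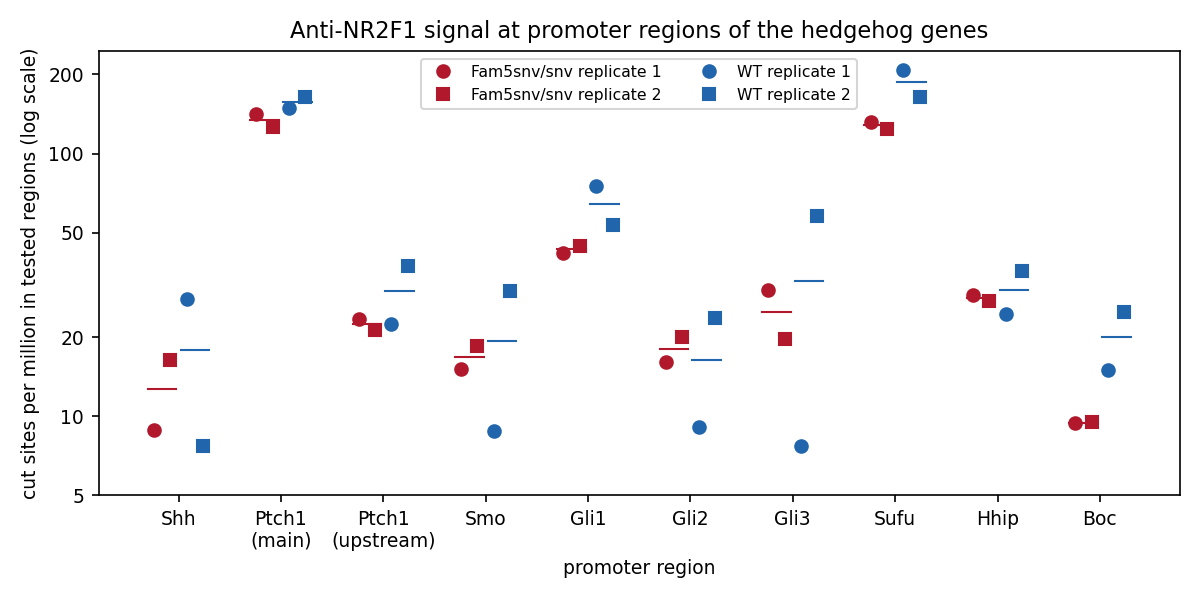
CPM in tested regions (log axis) at the 10 promoter regions of the 9 genes. Red points are the Fam5snv/snv libraries, blue points the WT libraries, circles replicate 1, squares replicate 2, and lines the mean of 2 libraries. Levels are totals with no correction for length. Gli1, Sufu, Boc and the main Ptch1 promoter have both red points below both blue points, and the blue points of Gli3 lie farthest apart, at 7.71 and 57.7.

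Shh, the ligand, lies at chr5:28456815-28467256 on the minus strand, and 2 of its 10 regions were tested. Its gene-level signal was 8.12 and 14.1 CPM in the Fam5snv/snv libraries and 18.7 and 9.85 CPM in the WT libraries. The ranges of the genotypes overlapped (log2 fold change -0.36, SE 0.41, edgeR adjusted p = 0.792). Per kb of called peak it had 3.94 and 3.86 CPM in Fam5snv/snv and 16.5 and 6.80 CPM in WT.

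The signal assigned to the Shh promoter did not sit on the start site in most libraries. Only the peak of Fam5snv/snv replicate 2 (2936 bp) spanned the annotated start, while the nearest peak lay 0.246 kb away in Fam5snv/snv replicate 1, 2.02 kb away in WT replicate 1 and 1.97 kb away in WT replicate 2, in each case within the gene. The merged region (chr5:28464289-28467372) had 8.89 and 16.4 CPM in Fam5snv/snv and 28.0 and 7.74 CPM in WT. The WT libraries enclosed the Fam5snv/snv libraries (log2 fold change -0.50, SE 0.62, edgeR adjusted p = 0.815). The sign turned without WT replicate 1, to 0.70. The other tested region, at -2.6 kb from the start and between genes, had 4.10 and 5.56 CPM in Fam5snv/snv and 5.61 and 9.14 CPM in WT (log2 fold change -0.61, SE 0.66, edgeR adjusted p = 0.780). A region 8.0 kb into the gene had 87 and 111 cut sites in Fam5snv/snv and 34 in WT replicate 2 but no peak in WT replicate 1, so it was not tested.

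Ptch1 encodes the receptor that represses Smoothened, and lies at chr13:63508328-63573598 on the minus strand with 5 protein-coding start sites. Its gene-level signal, from 5 tested regions of 30, was 172 and 157 CPM in Fam5snv/snv and 125 and 170 CPM in WT. WT replicate 2 lay between the Fam5snv/snv libraries (log2 fold change 0.16, SE 0.17, edgeR adjusted p = 0.767). Without WT replicate 1 the value was -0.05, and without WT replicate 2 it was 0.40.

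The 2 promoter regions and the largest intronic region of Ptch1 did not share a direction. The main promoter region (chr13:63561836-63571684), which covers 4 of the start sites, had 141 and 126 CPM in Fam5snv/snv and 149 and 164 CPM in WT. The Fam5snv/snv libraries both lay below the WT libraries (log2 fold change -0.23, SE 0.21, edgeR adjusted p = 0.738). The upstream promoter region (chr13:63572153-63574277) had 23.5 and 21.2 CPM in Fam5snv/snv and 22.4 and 37.3 CPM in WT, which overlapped (log2 fold change -0.42, SE 0.32, edgeR adjusted p = 0.684).

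The intronic region 18.1 kb into the gene (chr13:63550684-63560310) had the smallest unadjusted p of the member regions. It held 85.7 and 78.4 CPM in Fam5snv/snv and 43.1 and 60.8 CPM in WT. Both Fam5snv/snv libraries were above both WT libraries (log2 fold change 0.66, SE 0.23, edgeR adjusted p = 0.573). The called length in it was 7998 and 9110 bp in Fam5snv/snv and 1693 and 4838 bp in WT, and per kb of called peak the order turned, with 10.7 and 8.61 CPM in Fam5snv/snv and 25.5 and 12.6 CPM in WT. One tested region of the Ptch1 window, at chr13:63486101-63488939, lies in an intron of the neighbour Fancc.

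Hhip encodes a membrane protein that binds hedgehog ligands and limits their range, and lies at chr8:79965851-80058006 on the minus strand. Its gene-level signal, from 2 tested regions of 17, was 25.9 and 23.2 CPM in Fam5snv/snv and 17.4 and 24.8 CPM in WT. The genotypes overlapped (log2 fold change 0.22, SE 0.24, edgeR adjusted p = 0.782), and without WT replicate 1 the value was -0.02. The promoter region (chr8:80054064-80058716) had 29.0 and 27.4 CPM in Fam5snv/snv and 24.5 and 35.9 CPM in WT (log2 fold change -0.10, SE 0.27, edgeR adjusted p = 0.924). Peaks of 3 libraries spanned the start, and the nearest peak of WT replicate 1 began 0.267 kb inside the gene. The intronic region at 25.6 kb had 12.4 and 8.72 CPM in Fam5snv/snv and 6.66 and 6.68 CPM in WT, both Fam5snv/snv libraries above both WT libraries, on 19 cut sites in each WT library (log2 fold change 0.66, SE 0.51, edgeR adjusted p = 0.685).

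Boc encodes a co-receptor of the immunoglobulin superfamily that binds the ligand together with Patched, and lies at chr16:44485049-44558897 on the minus strand. Its gene-level signal, from 4 tested regions of 29, was 78.5 and 81.8 CPM in Fam5snv/snv and 76.3 and 84.3 CPM in WT, with a log2 fold change of -0.003 (SE 0.14, 95% interval -0.31 to 0.31, edgeR adjusted p = 0.996). At the promoter the fold change was larger than for the gene-level sum, but it did not pass the adjusted threshold either. The promoter region (chr16:44557379-44559084) had 9.43 and 9.48 CPM in Fam5snv/snv and 15.1 and 24.97 CPM in WT. Each Fam5snv/snv library lay below each WT library (log2 fold change -1.08, SE 0.41, edgeR adjusted p = 0.573), on 69 and 75 cut sites in Fam5snv/snv and 43 and 71 in WT. It had the lowest fold change of the 38 member regions. Per kb of called peak the promoter region was also below in both Fam5snv/snv libraries, with 8.95 and 7.78 CPM in Fam5snv/snv and 16.7 and 14.6 CPM in WT. On that scale 61.7% of all tested regions had this order. The strongest Boc region lay in an intron 28.7 kb into the gene, with 64.9 and 51.8 CPM in Fam5snv/snv and 57.1 and 79.1 CPM in WT (log2 fold change -0.22, SE 0.24, edgeR adjusted p = 0.781). Per kb of called peak it had 21.7 and 18.2 CPM in Fam5snv/snv and 29.7 and 23.1 CPM in WT, above the promoter in each library.

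Smo encodes Smoothened, the transducer, and lies at chr6:29735503-29761365 on the plus strand. Its gene-level signal was 39.7 and 44.7 CPM in Fam5snv/snv and 49.8 and 50.3 CPM in WT. The genotypes did not overlap, with Fam5snv/snv lower (log2 fold change -0.25, SE 0.16, edgeR adjusted p = 0.623). Of its 3 tested regions, of 14, 1 is the promoter of the neighbour Ahcyl2, so that the sum is mostly not of Smo. That region held 318 of 465 and 367 of 550 cut sites in Fam5snv/snv and 218 of 255 and 140 of 245 in WT. It had 43.5 and 46.4 CPM in Fam5snv/snv and 76.4 and 49.2 CPM in WT. The Smo promoter region (chr6:29735109-29737538) had 15.2 and 18.6 CPM in Fam5snv/snv and 8.76 and 29.9 CPM in WT, and the WT libraries enclosed the Fam5snv/snv libraries (log2 fold change -0.19, SE 0.54, edgeR adjusted p = 0.924). Without WT replicate 2 the value was 0.95. The intronic region at 13.2 kb had 4.92 and 4.55 CPM in Fam5snv/snv and 4.20 and 7.03 CPM in WT, which overlapped too.

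Sufu encodes the inhibitor that binds GLI proteins, and lies at chr19:46396896-46488804 on the plus strand. Its gene-level signal was 207 and 204 CPM in Fam5snv/snv and 236 and 201 CPM in WT. The ranges overlapped (log2 fold change -0.09, SE 0.14, edgeR adjusted p = 0.850). Per kb of called peak it had the highest gene-level signal of the 9 members in each library, 13.8 and 10.5 CPM in Fam5snv/snv and 24.0 and 13.7 CPM in WT. Its window of 43 regions, 5 of them tested, includes the promoter of the neighbour Trim8, and its own promoter region (chr19:46394247-46398586) is shared with Actr1a, whose start lies on the other strand. That region had 132 and 124 CPM in Fam5snv/snv and 209 and 165 CPM in WT. The Fam5snv/snv libraries both lay below the WT libraries (log2 fold change -0.54, SE 0.22, edgeR adjusted p = 0.575). The called length was alike, 3937 and 4235 bp in Fam5snv/snv and 3305 and 4340 bp in WT. Cut sites do not show which of the 2 genes the signal belongs to. The Sufu region of highest signal away from a promoter, in an intron at 46.4 kb, had 21.2 and 22.4 CPM in Fam5snv/snv and 23.1 and 9.14 CPM in WT.

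Gli1, an activator and a target of the pathway, lies at chr10:127329882-127341974 on the minus strand. Its gene-level signal, from 6 tested regions of 15, was 85.9 and 85.3 CPM in Fam5snv/snv and 100 and 97.1 CPM in WT. Each Fam5snv/snv library lay below each WT library (log2 fold change -0.20, SE 0.13, edgeR adjusted p = 0.626). The window also takes in the promoters of Mars and Inhbe and regions over exons of Arhgap9 and Inhbe, so that the sum is not of Gli1 alone. The Mars promoter region held 351 of 1005 and 337 of 1051 cut sites in Fam5snv/snv and 215 of 513 and 132 of 473 in WT. At the Gli1 promoter region (chr10:127338087-127342780) the signal was 42.0 and 44.5 CPM in Fam5snv/snv and 75.0 and 53.5 CPM in WT. The genotypes did not overlap (log2 fold change -0.57, SE 0.23, edgeR adjusted p = 0.574). The region 9.8 kb into the gene that holds the GLI core had 14.4 and 11.4 CPM in Fam5snv/snv and 4.55 and 19.3 CPM in WT, on 13 cut sites in WT replicate 1.

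Gli2, the main activator in the mouse neural tube, lies at chr1:118834132-119053619 on the minus strand and had the most regions, 97, of which 9 were tested. Its gene-level signal was 105 and 114 CPM in Fam5snv/snv and 84.7 and 79.0 CPM in WT. Both Fam5snv/snv libraries lay above both WT libraries (log2 fold change 0.42, SE 0.14, edgeR adjusted p = 0.409). The value stayed above 0 with each library left out, at 0.36 to 0.47, and was past the adjusted threshold without either WT library. With an offset for called length it was 0.12 relative to the shift of all genes, a relative value that was not tested. Per kb of called peak the genotypes overlapped, with 7.16 and 5.85 CPM in Fam5snv/snv and 13.5 and 6.03 CPM in WT. Of the 9 tested regions only 1 is at a promoter. Over the series, regions away from promoters had a median log2 fold change of 0.19 and promoter regions of -0.21. The part of this in the gene-level value was not tested. The promoter (chr1:119051772-119055831) differed by less than the spread of the WT libraries, with 16.1 and 19.98 CPM in Fam5snv/snv and 9.11 and 23.6 CPM in WT (log2 fold change 0.14, SE 0.48, edgeR adjusted p = 0.938). The regions with the smallest p lay far into the gene. A region over an exon at 186.1 kb (chr1:118866276-118868705) had 17.2 and 24.0 CPM in Fam5snv/snv and 10.9 and 11.3 CPM in WT (log2 fold change 0.90, SE 0.37, edgeR adjusted p = 0.574), with no overlap. It rested on 31 and 32 cut sites in WT, and its called length was 1592 and 2430 bp in Fam5snv/snv and 429 and 1033 bp in WT. An intronic region at 173.9 kb had 19.5 and 29.0 CPM in Fam5snv/snv and 19.6 and 12.0 CPM in WT (log2 fold change 0.62, SE 0.38, edgeR adjusted p = 0.631). The strongest Gli2 region, in an intron at 70.5 kb, had 39.0 and 44.5 CPM in Fam5snv/snv and 43.4 and 31.3 CPM in WT.

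Gli3, which acts mainly as a repressor, lies at chr13:15463235-15730026 on the plus strand, and 2 of its 40 regions were tested. Its gene-level signal was 31.5 and 24.7 CPM in Fam5snv/snv and 11.1 and 50.5 CPM in WT. The WT libraries enclosed the Fam5snv/snv libraries and lay far apart (log2 fold change -0.13, SE 0.50, edgeR adjusted p = 0.946). The call rested on which WT library was used. Without WT replicate 1 the log2 fold change was -0.85, and without WT replicate 2 it was 1.34, both past the adjusted threshold in edgeR, with adjusted p = 0.000642 and 2.64e-05. The promoter region (chr13:15461948-15465173) had 30.3 and 19.7 CPM in Fam5snv/snv and 7.71 and 57.7 CPM in WT. Its called length in WT replicate 1 was 456 bp, against 3226 and 2457 bp in Fam5snv/snv and 3199 bp in WT replicate 2. The intronic region at 79.1 kb had 20.1 and 18.7 CPM in Fam5snv/snv and 12.3 and 28.8 CPM in WT.

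**Figure D2:**
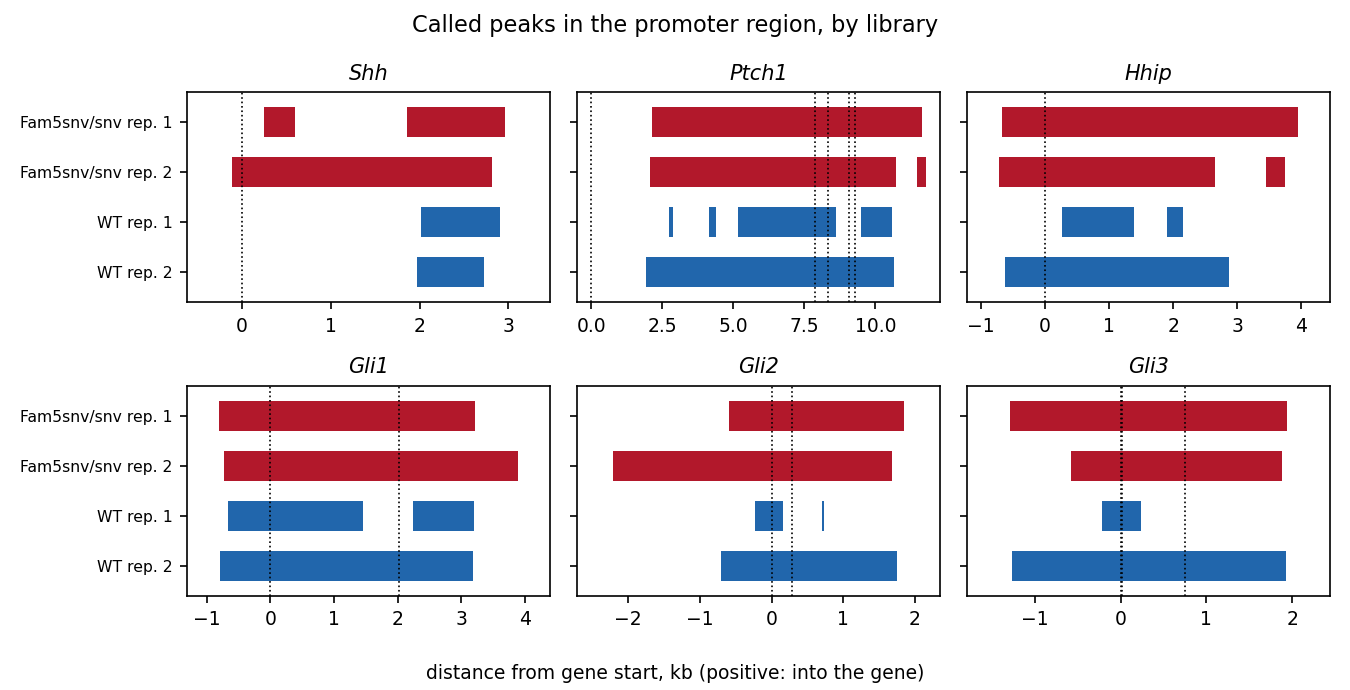
Called peaks inside the promoter region of 6 genes, by distance from the most upstream coding start (kb, positive into the gene). Red bars are Fam5snv/snv peaks, blue bars WT peaks, and dotted lines annotated coding starts. Peaks of WT replicate 1 are short or broken at, for example, Gli3 (456 bp, over a start) and Gli2 (26 bp, and 386 bp over a start). At Shh only Fam5snv/snv replicate 2 has a peak over the start.

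Between members, levels were compared per kb of called peak, as percentiles among the 12647 tested promoter regions of the series ordered by the mean over 4 libraries. The Sufu promoter region stood at percentile 93.1, the main Ptch1 region at 56.3 and the upstream one at 40.6. The others were in the lower part, with Gli1 at 33.0, Shh at 26.2, Gli3 at 24.97, Smo at 20.4, Boc at 17.9, Gli2 at 11.1 and Hhip at 9.2. The order of the lower regions rested on single libraries. Without WT replicate 1, Gli3 stood at 35.3, Boc at 26.2, Smo at 18.6, Hhip at 8.77, Shh at 4.77 and Gli2 at 4.08, while the upstream Ptch1 region stood at 53.0. Without WT replicate 2 the upstream Ptch1 region stood at 27.0, Gli3 at 13.1 and Boc at 11.3. Sufu stayed between 92.7 and 93.8, and Gli1 between 31.1 and 34.2, with each library left out. By total CPM, with no correction for length, Sufu stood at 97.8 and the main Ptch1 region, which is 9849 bp wide, at 97.3.

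The called length also differed between libraries, with the shortest total in WT replicate 1, so it did not follow genotype alone. At the Smo promoter region it was 2191 and 2306 bp in Fam5snv/snv and 411 and 2277 bp in WT. At the Shh promoter region it was 1460 and 2936 bp in Fam5snv/snv and 894 and 764 bp in WT. The median log2 ratio of called length, Fam5snv/snv over WT, was 0.54 in the member regions and 0.70 over all tested regions. Per kb of called peak, both Fam5snv/snv libraries were below both WT libraries in 25 of 38 member regions, where they were in 61.7% of all regions, and above in 0, where they were in 0.749%. At all 10 promoter regions of the members both Fam5snv/snv libraries were below both WT libraries on this scale. The share of all tested promoter regions in this order was not determined, so it is not shown to be particular to the members. The Fam5snv/snv libraries had 108 and 143 Mb of called peaks and the WT libraries 31.0 and 93.1 Mb, and the part of peak calling in these values was not tested.

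**Figure D3:**
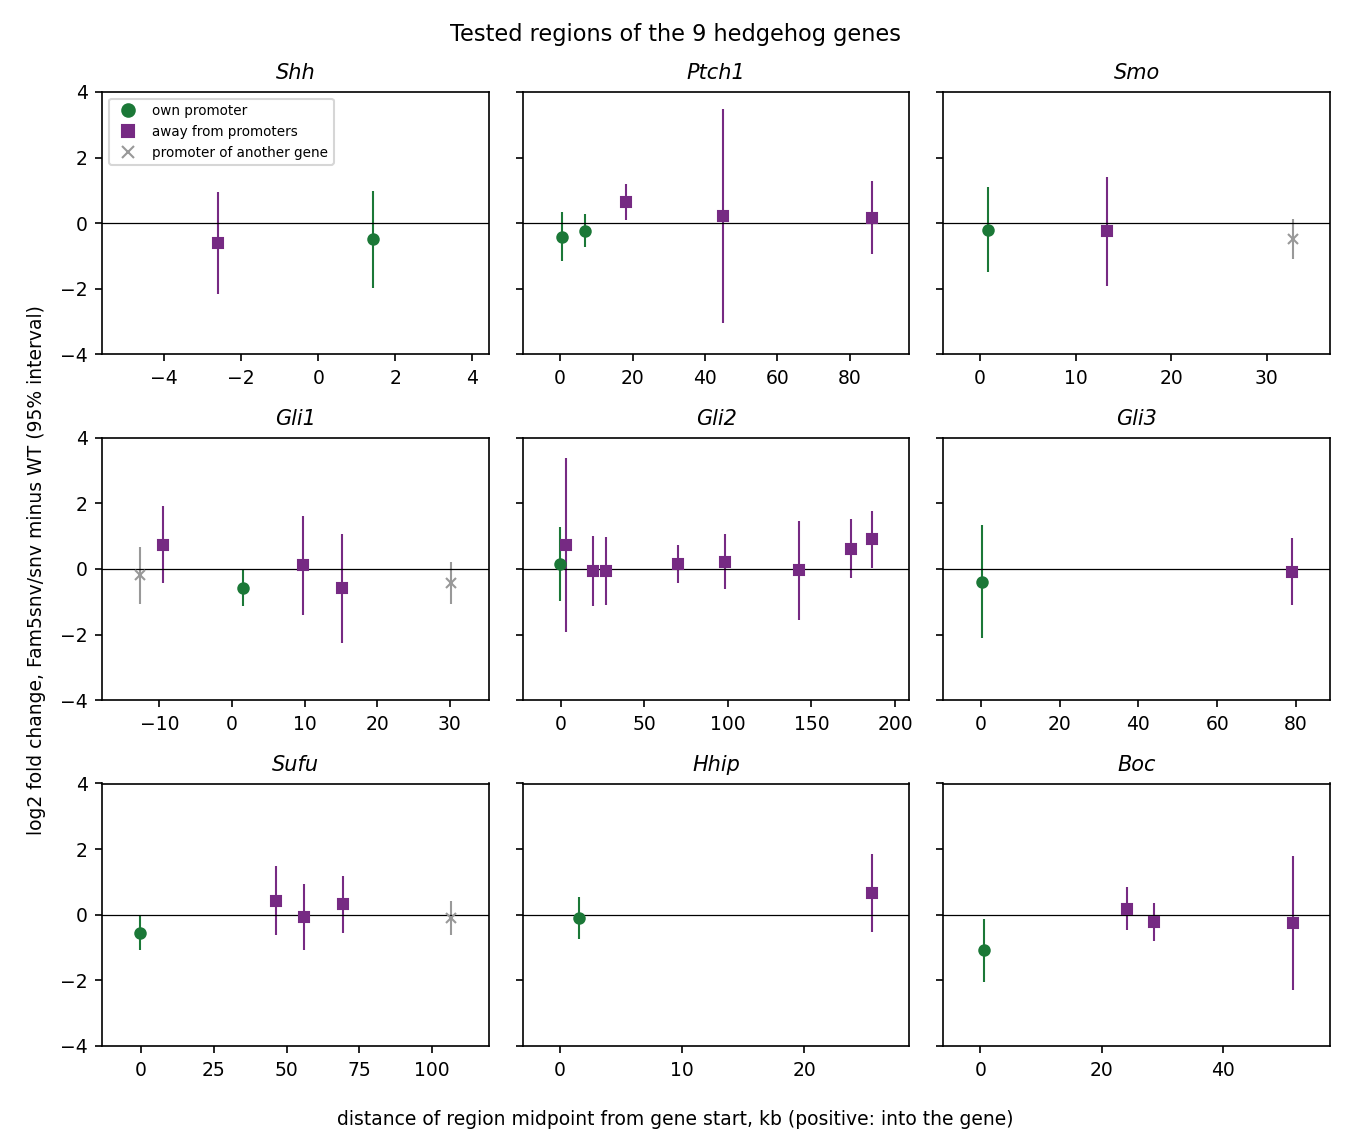
Log2 fold change (Fam5snv/snv minus WT, edgeR) of the 38 tested regions against the distance of their midpoint from the gene start (kb), with 95% intervals as bars. Green circles are the members' own promoters, purple squares regions away from promoters, and grey crosses promoters of neighbouring genes. The intervals that leave out 0 are those of the Gli1, Sufu and Boc promoters below 0 and of 1 Ptch1 and 1 Gli2 region above 0.

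The 38 tested regions were placed 14 at promoters (10 of the members and 4 of their neighbours), 5 over other exons, 18 in introns and 1 between genes. Over all tested regions, 35.4% lay at promoters, 9.77% over other exons, 22.7% in introns and 32.2% between genes. The windows are drawn around genes, so a low share between genes follows from the rule.

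The 257 member regions that were not tested account for the other peaks of the windows. Of these, 48 (18.7%) had a peak in every library but WT replicate 1, against 14.2% of all untested regions, and 28 (10.9%) had one in both Fam5snv/snv libraries only, against 10.2%. None was called in both WT libraries only, which held for 47 of 227869 untested regions in the series. Single-library regions numbered 38 in Fam5snv/snv replicate 1 (14.8%, against 14.5% of all untested regions) and 65 in Fam5snv/snv replicate 2 (25.3%, against 28.2%). They numbered 0 in WT replicate 1 (against 0.0755%) and 57 in WT replicate 2 (22.2%, against 25.4%).

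**Figure D4:**
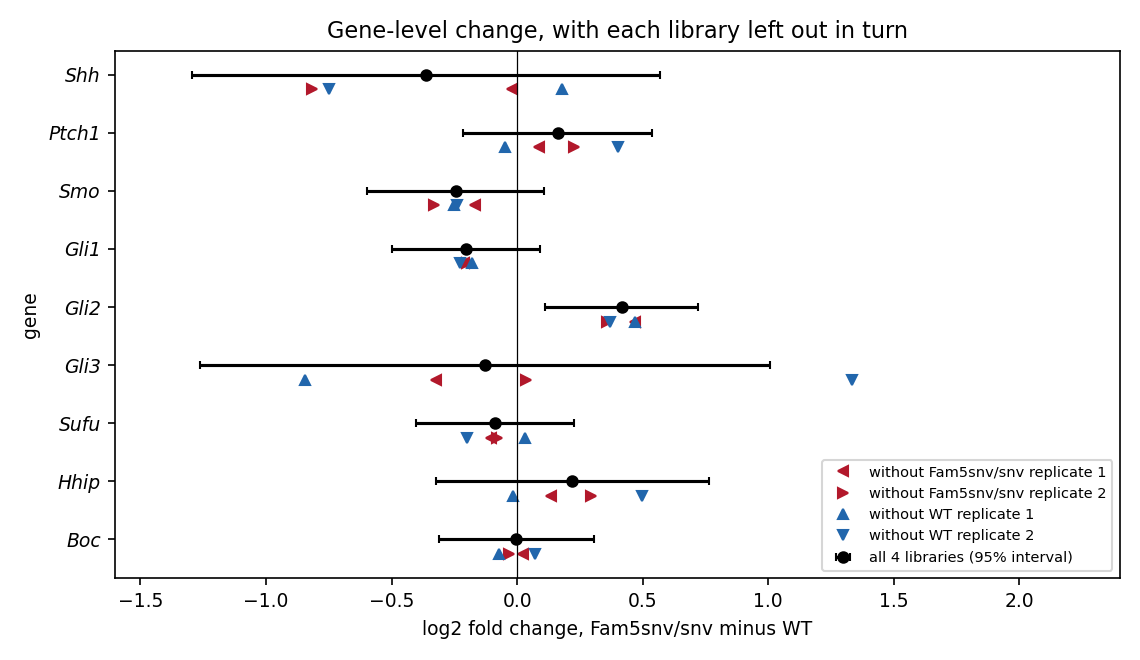
Gene-level log2 fold change (Fam5snv/snv minus WT, edgeR) of the 9 members, as black points with 95% intervals, and the value with each library left out as triangles (red for a Fam5snv/snv library, blue for a WT library). Gli2 stays at 0.36 to 0.47 throughout, while Gli3 lies at -0.85 without WT replicate 1 and at 1.34 without WT replicate 2.

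The share of barcodes with a cut site in a tested region of a member was compared after each barcode had been thinned to 565 cut sites, with intervals that cover counting error only. Any of the 9 members was hit in 44.1% and 41.6% of barcodes in Fam5snv/snv and 39.1% and 44.5% in WT. Without thinning the shares were 71.7% and 72.5% in Fam5snv/snv and 44.8% and 63.8% in WT, which follow depth. At 565 cut sites both Fam5snv/snv shares were above both WT shares for Gli2 and Sufu. How many of all genes have such an order in barcode shares was not determined. Gli2 was hit in 7.65% (95% interval 6.59 to 8.82) and 8.72% (7.69 to 9.84) in Fam5snv/snv and 6.11% (5.09 to 7.28) and 5.96% (4.77 to 7.34) in WT. Gli3 was hit in 2.46% and 1.90% of barcodes in Fam5snv/snv and 0.881% and 2.98% in WT, so that the WT libraries stood apart within this measure too. Ptch1 had 12.6% (11.2 to 14.0) and 11.2% (10.0 to 12.4) in Fam5snv/snv and 8.19% (7.002 to 9.50) and 11.7% (10.05 to 13.5) in WT, so that WT replicate 1 lay apart from the other 3 libraries. Sufu had 15.9% and 14.5% in Fam5snv/snv and 14.4% and 14.0% in WT, where the intervals of all 4 libraries overlapped. Thinned to 443 cut sites, Sufu turned, with 12.3% and 12.5% in Fam5snv/snv and 12.7% and 12.9% in WT. At that depth Gli2 was again above in both Fam5snv/snv libraries, with 6.55% and 7.34% in Fam5snv/snv and 4.45% and 5.01% in WT. Boc was above by little, with 4.705% and 4.708% in Fam5snv/snv and 4.28% and 4.65% in WT. Hhip was above too, with 1.847% and 1.277% in Fam5snv/snv and 0.9503% and 1.162% in WT. Smo was below, with 2.023% and 2.555% in Fam5snv/snv and 2.808% and 2.832% in WT. For Hhip and Smo the intervals of all 4 libraries overlapped, and at 565 cut sites neither gene had such an order. Shh, at 565 cut sites, had 0.923% and 1.204% in Fam5snv/snv and 1.45% and 0.799% in WT. With a sparse assay a barcode without a cut site is no evidence of an unbound gene, and barcodes were not typed.

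The promoter regions most like those of the members, by Euclidean distance over log2(CPM + 1) in the 4 libraries, were those of Reps1 for Hhip (0.06), Enpp4 for Gli1 (0.06), Fzr1 for Sufu (0.08), Rassf5 for Smo (0.13), Fam222a for the main Ptch1 region (0.15), Bnip2 for the upstream Ptch1 region (0.15), Dusp13 for Gli2 (0.23) and Tmprss6 for Boc (0.24). Tgif2 was nearest to Gli3 (0.38) and Slc35c1 to Shh (0.50). Within a distance of 0.5, Shh had 0 and Gli3 had 2 of 12646 other promoter regions, and Gli1 had 692.

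The other genes of the pathway were read from a list of 35, all of which had tested regions. With edgeR, 0 of 35 passed an adjusted p of 0.05, DESeq2 called 0 of the 18 that had an adjusted p there, and at an unadjusted p under 0.05, 2 of 35 were higher in Fam5snv/snv, where 6.39% of all genes were, and 2 were lower, where 3.42% were. Without WT replicate 1, 2 of 35 passed, against 6.96% of all genes, and without WT replicate 2, 9 of 35, against 19.5%. The median log2 fold change was 0.05 over the 35, against -0.01 for all genes tested. By role it was -0.06 for 5 genes of the ligand side, 0.05 for 4 of the receptor side, -0.11 for 16 of the cilium and transduction, and 0.24 for 10 targets, of which 7 were above 0.

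Among targets, Nkx6-2, a homeobox gene of ventral progenitors, had the smallest p of the list, with 99.4 and 102 CPM at gene level in Fam5snv/snv and 68.7 and 65.3 CPM in WT. The genotypes did not overlap (log2 fold change 0.58, SE 0.13, edgeR adjusted p = 0.357). Mycn, a proliferation gene, had 47.7 and 46.2 CPM in Fam5snv/snv and 24.8 and 42.5 CPM in WT (log2 fold change 0.48, SE 0.23, edgeR adjusted p = 0.540). Of the cilium and transduction genes, Gsk3b, a kinase that marks GLI proteins for processing, had 128 and 130 CPM in Fam5snv/snv and 180 and 153 CPM in WT (log2 fold change -0.37, SE 0.14, edgeR adjusted p = 0.456). Kif3a, a motor subunit of ciliary transport, had 15.0 and 12.1 CPM in Fam5snv/snv and 21.9 and 21.5 CPM in WT (log2 fold change -0.68, SE 0.26, edgeR adjusted p = 0.457). In both, the Fam5snv/snv libraries lay below the WT libraries.

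On the receptor side, Lrp2, an endocytic receptor for SHH, had 36.1 and 33.5 CPM in Fam5snv/snv and 17.4 and 30.6 CPM in WT (log2 fold change 0.54, SE 0.26, edgeR adjusted p = 0.537), and Cdon, a co-receptor related to Boc, had 46.1 and 51.9 CPM in Fam5snv/snv and 46.5 and 61.1 CPM in WT (log2 fold change -0.13, SE 0.18, edgeR adjusted p = 0.816). On the ligand side, Dhh, a further hedgehog ligand, had 127 and 117 CPM in Fam5snv/snv and 101 and 121 CPM in WT (log2 fold change 0.13, SE 0.14, edgeR adjusted p = 0.777). Scube2, which helps release the lipid-bearing ligand, had 8.03 and 6.25 CPM in Fam5snv/snv and 9.18 and 9.44 CPM in WT (log2 fold change -0.38, SE 0.41, edgeR adjusted p = 0.780).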

How the data were processed

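Single-cell CUT&Tag libraries (2 Fam5snv/snv, 2 WT) were read from the barcode lists, peak lists and matrices that the authors deposited, whose values are raw counts of cut sites with no normalization. The study's methods name Cell Ranger-ATAC 2.0.0, the matrix headers give software version 1.2.0, and the submitters' processing notes name mm10. The deposited peaks carry positions only. Counts were summed over barcodes per library, with no filter on cells, no doublet caller and no clustering. Any pair of libraries had 3 to 12 barcode sequences in common, up to 0.799% of those in the smaller one. Peaks were merged at 1 bp overlap and annotated with protein-coding genes of GENCODE M21, with promoters taken as 1 kb on either side of a start. Since a library has no count outside its own peaks, the tests took regions called in all 4 libraries in which 2 or more libraries held 10 or more cut sites.

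Fam5snv/snv minus WT was fitted over all regions, and over all genes, with edgeR 4.0.16 (R 4.3.3), by the quasi-likelihood test after TMM scaling and without a block, and p-values were adjusted by Benjamini-Hochberg. The common biological coefficient of variation was 0.305 for regions and 0.155 for genes, with 2 residual degrees of freedom. Tested regions had a median of 126 and 139 cut sites in Fam5snv/snv and of 42 and 47 in WT, so the WT counts limit the precision. The fits were tested on simulated data. Called length per library entered one alternative as an offset, and the others were DESeq2 1.42.0, other count minimums, other scalings, coverage of at least 50%, gene bodies with no flank, a replicate block and each library left out. Removal of neighbouring promoters, scaling of genes as the regions, and promoter percentiles with each library left out were added after seeing the data.

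For barcode shares each barcode was thinned to 565 cut sites (at the 25th percentile in WT replicate 1), which left out 0 barcodes of the Fam5snv/snv libraries, 642 of WT replicate 1 and 1 of WT replicate 2. Intervals are exact binomial at 95% and cover counting error only. Motifs were searched in the mm10 genome sequence on both strands. Named were all members, their promoter regions, for each member the region of highest CPM away from a promoter, the 3 member regions of smallest p in each direction, the promoter region nearest to each member's, and 2 genes of smallest p per role of the pathway list. One motor neuron marker is not reported here. Members and lists were chosen with earlier results of these data known. The labels number replicates, and separate embryo pools are the only sign of independence, so p-values measure the spread between these pools.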

Additional observations from a re-analysis of the deposited data

How the results depend on the processing

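No gene or region of the members passed the adjusted threshold in an alternative that kept all 4 libraries, but DESeq2 gave an adjusted p to 5 of 9 genes, coverage of at least 50% kept 6 genes and 11 of 38 regions, and at least 20 cut sites kept 28 regions. Counts over the series moved, with 560 regions and 38 genes called by DESeq2, 18 regions when coverage of at least 50% was required, and 1 gene with at least 20 cut sites in every library. Leaving out each library gave 0 to 6315 regions and 0 to 3188 genes, with 0 to 8 member regions and 0 to 3 member genes. Scaling by the number of barcodes moved the median log2 fold change of all regions by 0.94 and of all genes by 0.80 (8708 regions higher and 0 lower at an unadjusted p under 0.05), an offset for called length moved them by -0.78 and -0.70 (4 higher and 4545 lower), and scaling genes as the regions moved that of genes by -0.15, so values under these settings are given relative to the shift. The labels do not say whether same-numbered libraries shared a day or batch. Their deviations from the genotype means correlated at 0.03. With 2 libraries per genotype this value is the same for both pairs, so it cannot settle whether they were paired. With a replicate block 0 regions and 12 genes were called, 0 of them members, and the signs of the Gli3 gene (0.13), the Gli3 promoter (0.032), the Gli3 region at 79.1 kb (0.019) and the Smo promoter (0.0096) turned. Relative to the shift, the offset for called length turned Ptch1 (-0.031), Sufu (0.066), Hhip (-0.059), Boc (0.20), Dhh (-0.41), Gsk3b (0.16) and Nkx6-2 (-0.055) at gene level. Among regions it turned the Ptch1 intron at 18.1 kb (-0.18), the main Ptch1 promoter (0.030), the Smo region at 13.2 kb (0.40), the Gli2 region at 173.9 kb (-0.13), the Gli2 promoter (-0.54), the Sufu promoter (0.095) and the Boc region at 28.7 kb (0.38). Scaling by barcodes turned the Gli1 region at 9.8 kb (-0.11) and the Gli2 promoter (-0.024). The coverage minimum turned Sufu (0.0057), the main Ptch1 promoter (0.058) and the Boc region at 28.7 kb (0.049). The stricter count minimum turned Boc (0.049), the Gli3 region at 79.1 kb (0.0090) and the Hhip promoter (0.0013), and gene bodies with no flank turned Boc (0.0073).

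Leaving out each library turned a sign in 7 genes, with ranges of -0.82 to 0.18 for Shh, -0.047 to 0.40 for Ptch1, -0.85 to 1.34 for Gli3, -0.20 to 0.031 for Sufu, -0.016 to 0.50 for Hhip, -0.073 to 0.071 for Boc and -0.32 to 0.077 for Cdon. Among promoter regions the ranges that crossed 0 were -1.14 to 0.70 for Shh, -0.83 to 0.95 for Smo, -0.39 to 0.99 for Gli2, -1.21 to 1.70 for Gli3 and -0.35 to 0.20 for Hhip. Among the other regions they were -0.58 to 0.17 for Smo at 13.2 kb, -0.60 to 1.49 for Gli1 at 9.8 kb, -0.057 to 0.41 for Gli2 at 70.5 kb, -0.58 to 0.66 for Gli3 at 79.1 kb, -0.086 to 1.24 for Sufu at 46.4 kb and -0.45 to 0.031 for Boc at 28.7 kb. The cause of these turns was not tested. The difference in barcodes hit in any member, 1.07 percentage points after thinning, was 2.505 when thinned to 443 cut sites and 17.8 without thinning. With 100 bp on either side of the midpoint, 5.26% of member regions held the hexamer, against 15.8% of all tested regions, and 0% the DR1, against 4.71%.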
